A study of Mus musculus with 12 samples.

Results

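The genes described are 49 genes of DNA replication and of the G1/S step of the cell cycle, read in mouse mast cells grown from bone marrow. They were taken as a list of gene symbols by known role and matched to Affymetrix probe sets, each set a group of short oligonucleotides made to read transcripts of a gene. Of the 49 genes, 48 had at least 1 set that carried that symbol alone, and these came to 112 of the 45137 probe sets of both chips, with 89 from MOE430A (chip A) and 23 from MOE430B (chip B). The symbol Chaf1a was on no such set. Of the 112 sets, 16 have names ending in _x_at and 7 in _s_at, endings that mark sets which may read more than 1 sequence. The brightest sets of Fen1, Rrm2 and Mcm6 (_x_at) and of Mcm7 and Mcm3 (_s_at) are among them. In all, 47 genes had a set bright enough to be tested, 44 of them from chip A and 3 (Gins2, Orc1 and Tyms) from chip B alone. The 2 sets of Rfc3, a clamp loader subunit, were too dim, with signals of 20.6 to 540 over the 6 cultures.

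The cells came from the marrow of femur and fibula and were kept in RPMI with fetal bovine serum and interleukin-3 (IL-3), the growth factor that all cultures of both groups received. Cultures M1, M3 and M5 formed the precursor group and had grown for 14 to 16 days. Cultures M2, M4 and M6 formed the mature group and had grown for 57 to 110 days. The labels call M1 and M6 female and the other 4 male. The labels gave a purity of about 80% and named stromal cells, monocytes and macrophages as cells that could remain. No strain, genotype or animal age was given in the sources used here, nor which day within each range a culture was taken, and p-values measure only the spread between these cultures. Of 12 mast cell markers 11 were tested, 0 rose and 1 fell in the mature cultures, Hdc, which makes histamine, from 5945 to 15706 in the precursors to 1117 to 2153 (log2 difference -2.62, adjusted p = 0.0134, limma). Tpsab1, a tryptase, read 1438 to 2432 against 594 to 1667 and did not pass. Hdc and Tpsab1 were the only 2 of the 11 with a negative log2 difference. The median over the 11 was 0.11, and -0.068 without M5. Others were bright in both groups, with Kit, the stem cell factor receptor, between 27352 and 47932 in all 6 cultures and Cpa3, mast cell carboxypeptidase, between 135749 and 283801.

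A cell copies its genome once per cycle. In G1 the origin recognition complex, CDC6 and CDT1 load the MCM helicase on DNA, D-type cyclins with CDK4 and then cyclin E with CDK2 release E2F factors from the retinoblastoma protein, and E2F factors raise transcription of many genes that S phase needs. The helicase, activated with CDC45 and GINS, opens the DNA, primase and the polymerases copy it, PCNA holds the polymerases on the template, and ribonucleotide reductase supplies the nucleotides. IL-3 drives division of mast cells in culture, so that RNA of these genes is a usual reading of how much a culture is cycling.

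The DNA before several of these genes carries the letters that E2F factors are known to bind. Promoter windows, from 250 bases before to 50 after a gene's start, came from RefSeq (GRCm38.p6) and covered 40 of the 49 genes. They were searched on both strands for 4 forms of the E2F site, TTTCCCGC, TTTGGCGC, TTTCGCGC and TTTGCCGC, whose matches on opposite strands can overlap. At least 1 form was found for 14 of the 40 genes (35%), against 423 of 9512 genes with a tested set (4.45%) and 704 of all 27025 genes in the table (2.61%). The 14 were Mcm3, Mcm5, Mcm6, Mcm7, Orc1, Cdt1, Cdc6, Pola1, Pold1, Pole2, Rfc3, Lig1, Uhrf1 and Cdk2. A match is a description of the letters in these windows and not a site shown to be bound, and a window with none says nothing about the factor. Below are windows of 4 helicase subunits and 2 origin licensing genes. They were picked from genes with both a match and M6 as the lowest culture in the brightest set, so each holds a match by choice. Cdc6 met both conditions as well and is not shown. Cdc45 and Orc6 were also lowest in M6, and their windows held no match. A further window of Mcm7 held none either and is not shown. The windows shown are written 5′ to 3′ on the gene's strand with the E2F forms in capitals.
Mcm3 (chr1:20820263-20820562, minus strand): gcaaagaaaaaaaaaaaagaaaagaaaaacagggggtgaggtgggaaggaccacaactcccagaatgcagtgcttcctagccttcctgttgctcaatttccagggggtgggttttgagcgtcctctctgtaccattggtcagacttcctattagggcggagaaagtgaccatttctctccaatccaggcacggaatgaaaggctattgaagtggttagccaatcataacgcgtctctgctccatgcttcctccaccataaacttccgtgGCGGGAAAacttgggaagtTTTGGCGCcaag
Mcm5 (chr8:75109259-75109558, plus strand): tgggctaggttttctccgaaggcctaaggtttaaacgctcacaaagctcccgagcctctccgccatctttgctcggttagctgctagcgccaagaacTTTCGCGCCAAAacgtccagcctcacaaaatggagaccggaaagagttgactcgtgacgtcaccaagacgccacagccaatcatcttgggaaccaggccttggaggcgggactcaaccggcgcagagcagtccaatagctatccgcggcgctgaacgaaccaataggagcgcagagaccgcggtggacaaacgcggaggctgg
Mcm6 (chr1:128359656-128359955, minus strand): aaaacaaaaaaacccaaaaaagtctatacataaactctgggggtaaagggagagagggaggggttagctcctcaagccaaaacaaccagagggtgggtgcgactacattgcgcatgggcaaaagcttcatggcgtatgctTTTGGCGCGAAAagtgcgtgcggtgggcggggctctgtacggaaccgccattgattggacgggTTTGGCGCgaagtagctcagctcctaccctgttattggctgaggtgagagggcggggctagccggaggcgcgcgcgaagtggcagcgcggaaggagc
Mcm7 (chr5:138171834-138172133, minus strand): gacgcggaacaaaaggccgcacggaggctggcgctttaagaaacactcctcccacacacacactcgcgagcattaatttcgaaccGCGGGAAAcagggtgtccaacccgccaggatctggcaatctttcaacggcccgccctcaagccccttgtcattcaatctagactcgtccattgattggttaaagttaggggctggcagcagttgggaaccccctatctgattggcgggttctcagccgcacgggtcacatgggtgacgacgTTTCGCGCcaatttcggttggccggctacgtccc
Orc1 (chr4:108579204-108579503, plus strand): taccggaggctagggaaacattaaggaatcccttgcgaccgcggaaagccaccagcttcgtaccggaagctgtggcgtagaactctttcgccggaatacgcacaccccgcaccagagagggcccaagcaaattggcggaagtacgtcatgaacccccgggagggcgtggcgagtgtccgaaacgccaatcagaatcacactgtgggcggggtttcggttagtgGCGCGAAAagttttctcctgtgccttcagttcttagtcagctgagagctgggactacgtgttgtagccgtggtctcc
Cdt1 (chr8:122567765-122568064, plus strand): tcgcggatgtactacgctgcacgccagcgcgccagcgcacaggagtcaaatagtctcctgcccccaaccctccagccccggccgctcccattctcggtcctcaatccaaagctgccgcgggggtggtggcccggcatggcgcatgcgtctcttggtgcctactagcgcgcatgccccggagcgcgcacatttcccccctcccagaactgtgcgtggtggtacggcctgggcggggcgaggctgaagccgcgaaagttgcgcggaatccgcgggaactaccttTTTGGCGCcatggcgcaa
In the Mcm5 window, 2 forms on opposite strands overlapped, with first bases 153 and 149 bases before the start. The Mcm6 window held an overlapping pair at 110 and 106 bases before the start and a further match at 47. The Mcm3 matches lay 19 and 38 bases after the start. For Mcm7 they lay 165 bases before and 16 bases after it, for Orc1 27 bases before and for Cdt1 32 bases after.

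The arrays of M6 stood apart in ways that bear on every value below. The signal of the 18 bacterial and phage control sets, whose transcripts are added to each sample in set amounts, was 2.32 times the median over the 6 cultures in M6 on chip A and 1.92 times on chip B, against 0.798 to 1.14 in the other cultures. The median signal of the chip A array of M6 was 695, against 536 to 592 for the others. The median over the genes is therefore given with and without M6, as is each stage difference below that leaving out M6 moved by over 1.5 times. The ratio of the 3′ to the 5′ actin control set, a sign of RNA quality, ran over both chips from 4.81 to 7.25 for M1, M3 and M5 and from 8.66 to 10.8 for M2, M4 and M6, and within each chip it was lowest in M5. The actin ratio moves with the stage and with the high signals of M5 described below, and its part in them was not tested. The same ratio of the GAPDH control sets overlapped between the stages on chip A, with 13.5 in M3 against 12.8 in M4. On chip B all mature cultures lay above all precursors, the nearest being M4 at 16.8 and M3 at 13.7. It was lowest in M1 on chip A (9.11, with 9.39 in M5) and on chip B (9.44, with 11.96 in M5). Precision is limited throughout by the small number of arrays.

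The comparison of mature with precursor cultures asked whether the replication genes differ between the 2 stages. No gene among them passed the test, in either direction. In limma with Benjamini-Hochberg adjustment over all sets of a chip, 0 of the genes' 70 tested chip A sets reached an adjusted p under 0.05, where 0.527% of all tested sets did. Of their 14 tested chip B sets 0 did, against 0.0926% of all. Their lowest adjusted p was 0.700 (chip A) and 0.637 (chip B). At an unadjusted p under 0.05, 1 set passed on each chip, a set of Mcm3 and a set of Cdc45, against 6.59% and 6.42% of all tested sets. All 3 cultures of a group lay above or below all 3 of the other group in 1 of the 70 chip A sets (Cdk2) and 1 of the 14 chip B sets (Cdc45), a smaller share than the 12.2% and 12.0% over all tested sets.

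The sign of the stage difference was mixed and rested on M5 and M6. With the brightest tested set for each gene (chip A first), the log2 difference, mature minus precursor, was negative for 32 and positive for 15 of the 47 genes, with a median of -0.15 (median SE 0.379, 3 cultures a group) and a range from -0.78 for Rrm2 to 0.70 for Gins2. The median over all tested sets was 0.018 for chip A and 0.0040 for chip B. Without M6 the members' median was 0.16 and 29 of the 47 were higher in the mature cultures. Leaving out M5 instead gave 0.051, with 26 higher. With both left out, an alternative chosen after the data were seen, the median was 0.28 and 37 of 47 were higher. The 95% interval of the difference reached a median of 0.836 to either side of the estimate, and for 17 of the 47 genes it lay within 1 log2 unit on either side of 0. For the other 30 a change of over 1 log2 unit in at least 1 direction lies inside the interval, so that the missing call does not show equal levels.

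**Figure D1:**
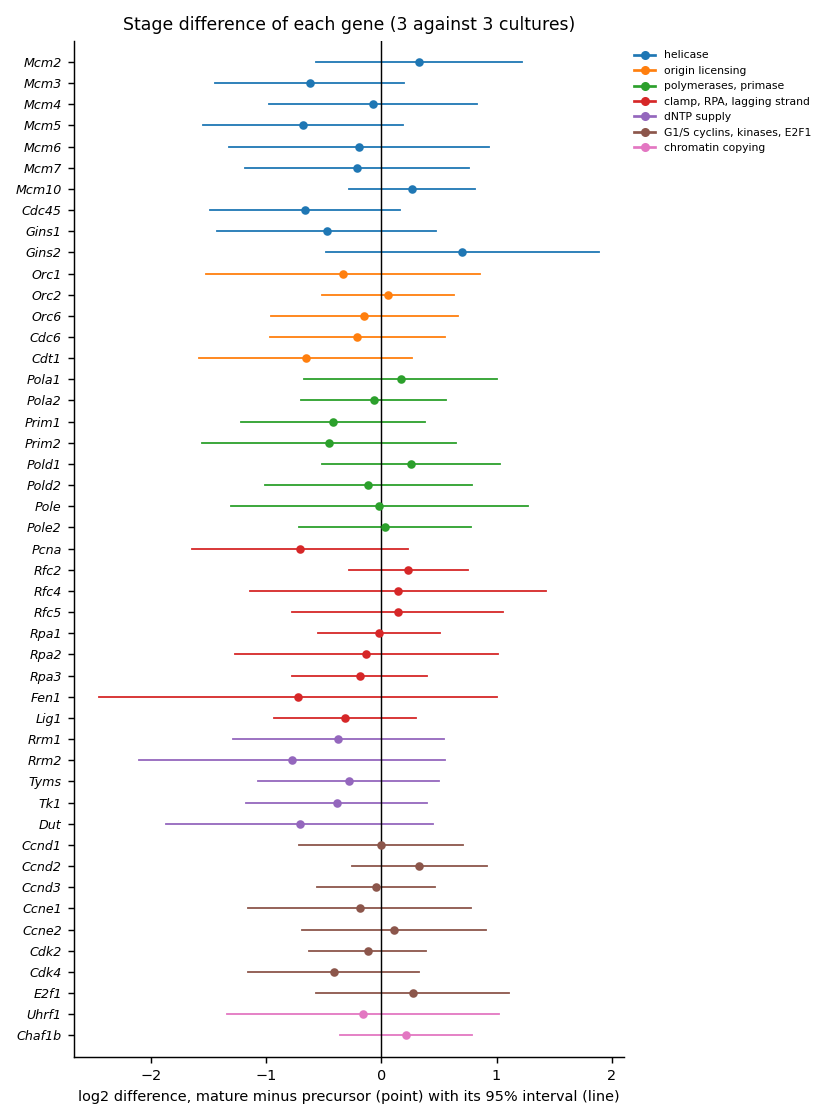
Log2 difference of each of the 47 tested genes, mature minus precursor cultures (point), with its 95% interval from limma (line), 3 cultures a group, coloured by role. Each line crosses 0, and the points run from -0.78 (Rrm2) to 0.70 (Gins2).

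Many of the genes shared an order among single cultures, as the heat map by culture shows. M6 had the lowest signal of the 6 cultures for 29 of 47 genes (61.7%), against 21.8% of all tested chip A sets and 20.9% of chip B sets. M5 had the highest for 27 (57.4%), against 18.5% and 18.0%. Within the mature group, M6 lay below both M2 and M4 for 38 of the 47 genes, against 34.8% of all tested chip A sets, and its log2 signal minus the mean of M2 and M4 had a median of -0.81 over the genes and 0.081 over those sets. Within the precursor group, M5 lay above M1 and M3 for 33 genes, against 31.5% of sets, with a median of 0.75 over M1 and M3 against -0.037. These 2 cultures were singled out after their values were seen, so the shares are a description of them with no test. The raised control signal of M6 moves with its low values, and its part in them was not tested. M6 is also the only female culture of the mature group, so its contrast with M2 and M4 sets a female against male cultures. The day on which M6 was taken was not given. The parts of sex and day in its low values were not tested. On the same chip A arrays M6 was the highest culture in 29.0% of all tested sets. In bulk RNA, fewer cycling cells and less of these RNAs in each cell cannot be told apart.

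**Figure D2:**
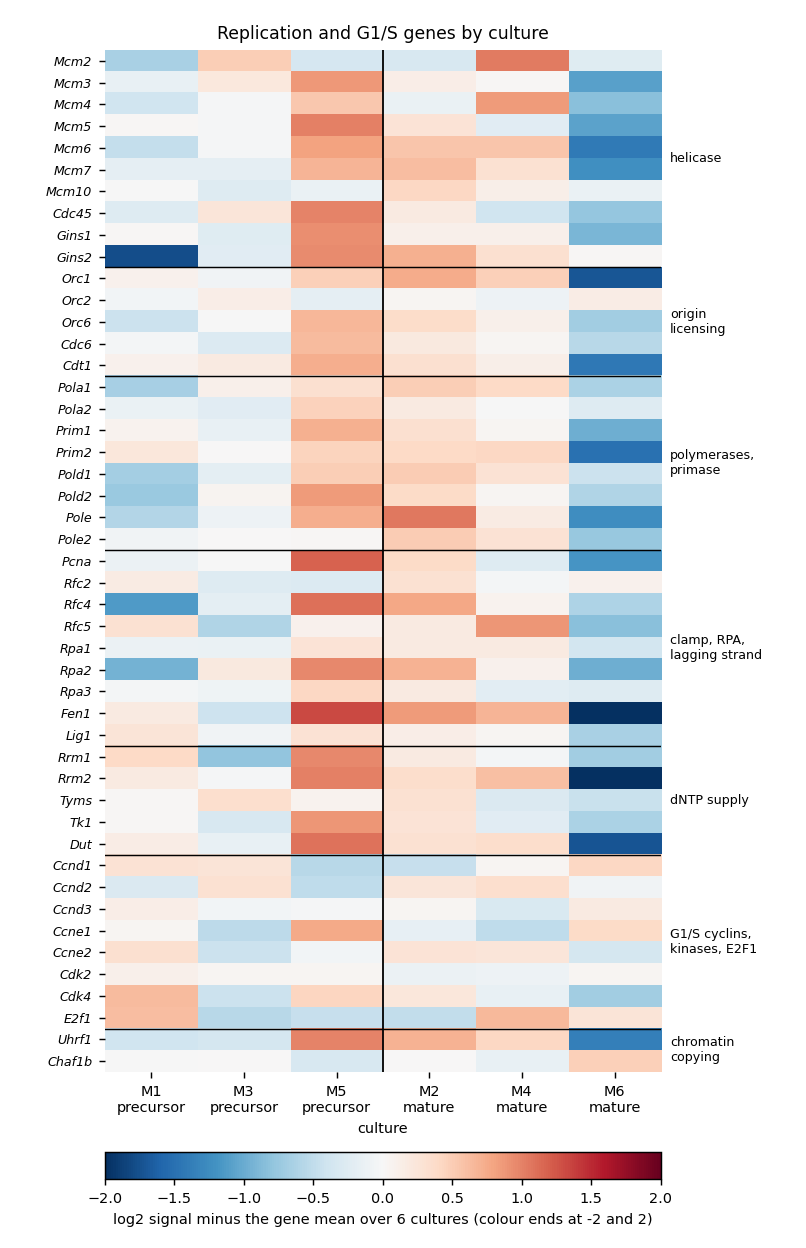
Log2 signal of the 47 tested genes minus each gene's mean over the 6 cultures, ordered by role (rows) with 3 precursor and 3 mature cultures (columns). The M6 column is the lowest for 29 genes and the M5 column the highest for 27, with 1 gene each in the block of G1/S cyclins, kinases and E2F1.

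**Figure D3:**
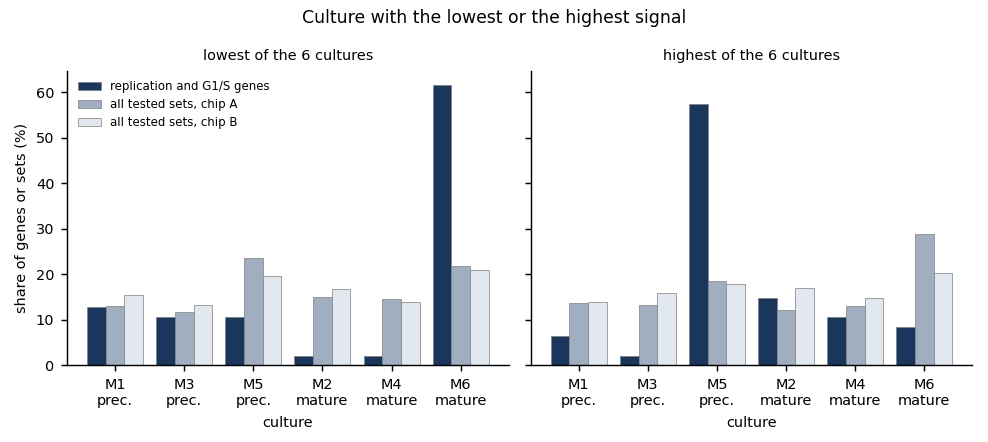
Share of genes or probe sets (percent, bars from 0) for which each culture had the lowest (left) or the highest (right) signal, for the 47 genes and for all tested sets of each chip. The bars of the genes stand at 61.7% for M6 as the lowest and 57.4% for M5 as the highest.

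Of the 10 helicase genes, M6 was lowest for 7, M5 was highest for 7, and 6 showed both. Their median stage difference was -0.20 with all cultures and 0.34 without M6. Mcm7, an MCM subunit with 2 E2F forms in the window shown above, had signals of 11400 (M1), 11359 (M3) and 20621 (M5) in the precursors and 19680 (M2), 15868 (M4) and 5491 (M6) in the mature cultures. The groups overlapped, with M5, M2 and M4 on the high side and M6 alone on the low side. In this set the log2 difference of -0.21 (SE 0.439, adjusted p = 0.964, limma) turned to 0.35 without M6. The other Mcm7 sets gave -0.43, -0.31 and 0.59 without M6, so the turn depended on the set. Mcm6, a further subunit, read 3452, 4742 and 8404 in M1, M3 and M5 against 7096, 7119 and 1818 in M2, M4 and M6. Mcm3 read 2451, 3132 and 4964 against 2973, 2744 and 1277. For both genes M6 was lowest and M5 highest, and neither passed, with log2 differences of -0.19 (95% interval -1.32 to 0.93) and -0.62 (-1.45 to 0.20). These were 0.46 and -0.24 without M6, while the other Mcm6 set gave -0.22 and the other Mcm3 sets ran from -0.76 to 0.20. Mcm5 was lowest in M6 and highest in M5 in 1 set of each chip, with log2 differences of -0.68 and -0.63 (-0.31 and 0.24 without M6). Its chip A set read 1359, 1315 and 2685 against 1616, 1139 and 634, and 1 chip B set 40690, 31740 and 81807 against 57733, 54315 and 9105. A further Mcm5 set on chip B was lowest in M2 (log2 difference -0.74, and -1.22 without M6). In their brightest sets, Mcm2 and Gins2 were lowest in M1 and Mcm10 in M3. The other Mcm2 set (log2 difference -0.24, and 0.24 without M6) was lowest in M6 and highest in M5. Gins2, a GINS subunit measured on chip B, read 1027, 3010 and 6780 in the precursors and 5776, 4404 and 3563 in the mature cultures (log2 difference 0.70, 95% interval -0.48 to 1.89). Without M1 this difference was -0.0084.

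The origin licensing genes Orc1, Orc6, Cdc6 and Cdt1 were each lowest in M6. Cdt1, which loads the helicase with CDC6, read 4832, 5133 and 7466 in M1, M3 and M5 and 5645, 4930 and 1691 in M2, M4 and M6, with a log2 difference of -0.66 (SE 0.417, adjusted p = 0.838, limma) that was -0.11 without M6. Orc1, the largest origin recognition subunit, read 2714, 2432 and 3558 against 4274, 3552 and 778 on chip B. In both, M4 lay within the range of the precursors, M2 lay within it for Cdt1 and above it for Orc1, and M6 stood well below all others. Orc2, a subunit of the same complex, was nearly flat, from 944 in M5 to 1178 in M6, and 1 of its 3 tested sets was lowest in M6.

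Primase and the polymerases gave M6 as the lowest culture in 5 of 8. Prim1, the catalytic primase subunit, had signals of 3166, 2703 and 4922 in the precursors and 3740, 3095 and 1528 in the mature cultures (log2 difference -0.42, 95% interval -1.22 to 0.38, and -0.032 without M6). Prim2, its partner, read 811, 698 and 940 against 910, 924 and 121, and Pole, the catalytic subunit of polymerase epsilon, 388, 545 and 966 against 1214, 656 and 77.4. The M6 values of Prim2 and Pole lie under the floor of 247 that was set on chip A, so that their distance to the other cultures in these sets is a lower bound. The log2 difference of Prim2 was -0.45 in this chip A set (0.18 without M6) and 0.36 in its chip B set (0.49 without M6). M6 was not the lowest culture in that chip B set. Pola1, Pold1 and Pold2, of polymerases alpha and delta, were instead lowest in M1, with 685, 1262 and 756.

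The clamp, single-strand binding and lagging-strand genes included the widest range over cultures among the 47. Fen1, the nuclease that trims Okazaki fragments, read 10175 (M1), 6744 (M3) and 22610 (M5) in the precursors and 16245 (M2), 14393 (M4) and 1483 (M6) in the mature cultures. M2 and M4 lay between M1 and M5, and M6 alone was far below, at a log2 of -3.37 against the mean of M2 and M4. The difference of -0.72 (SE 0.783, adjusted p = 0.924, limma) thus turned to 0.40 without M6. The other tested Fen1 set was lowest in M6 and highest in M5 as well, with a smaller difference of -0.22 (0.090 without M6). Pcna, the sliding clamp, read 16663, 18017 and 40860 against 23478, 15016 and 7984, again with M5 at the top and M6 at the bottom. Rpa1, the large subunit of the single-strand binding protein, had the same top and bottom cultures over a narrower range, with 23098, 22967 and 30507 against 28341, 28404 and 19396. Lig1, the ligase that joins the fragments, was lowest in M6 at 1313 and lay between 1955 and 2499 elsewhere. Rfc2, a clamp loader subunit, did not follow, at 7850 in M5, its lowest culture, and 10020 in M6.

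**Figure D4:**
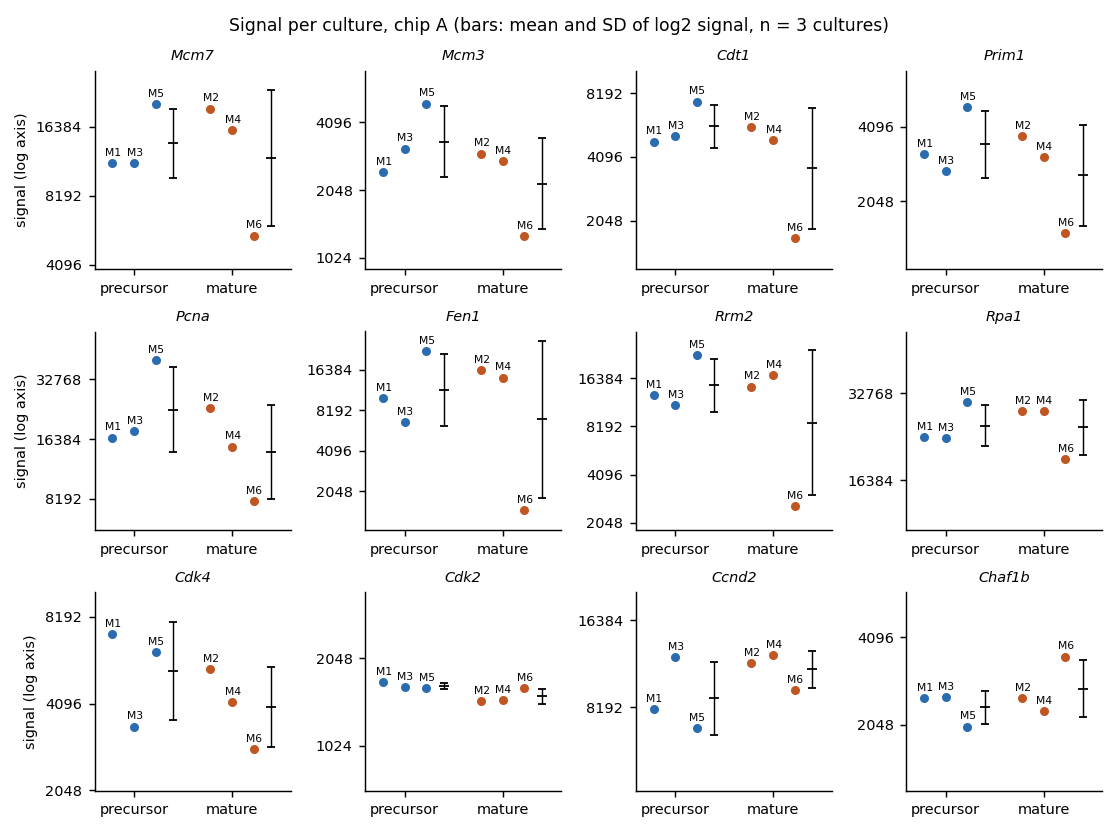
Chip A signal (log axis) of 12 of the genes in each culture, precursors in blue and mature cultures in orange, with bars for the mean and SD of the log2 signal (n = 3 cultures). M6 is the lowest point and M5 the highest for Mcm7, Mcm3, Cdt1, Prim1, Pcna, Fen1, Rrm2 and Rpa1, while Ccnd2 and Chaf1b are lowest in M5.

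All 5 genes of deoxynucleotide supply had a negative stage difference, with a median of -0.39 (-0.12 without M6), and none passed. Rrm2, the small subunit of ribonucleotide reductase, whose RNA is known to follow S phase, read 12824, 11108 and 22827 in M1, M3 and M5 and 14482, 17090 and 2597 in M2, M4 and M6. Only M6 lay outside the range of the precursors, and the log2 difference of -0.78 (SE 0.602, adjusted p = 0.873, limma) was 0.087 without it. All 3 tested sets of Rrm2 had M6 as the lowest and M5 as the highest culture. Without M6 the sets other than the brightest kept a negative difference, of -0.24 and -0.67. Dut, which removes dUTP, read 3240, 2638 and 6200 against 3618, 3756 and 890, and Tk1, thymidine kinase, 1553, 1222 and 2816 against 1852, 1306 and 983. Rrm1, the large subunit of the reductase, was lowest in M3, at 2682, with M6 next at 2870.

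The 8 genes of cyclins, kinases and E2F1 showed this order less in their brightest chip A sets. With 1 set per gene, M6 was the lowest culture for 1 of them (Cdk4) and M5 the highest for 1 (Ccne1), against 28 and 26 of the other 39 genes. Their median of M6 minus the mean of M2 and M4 was 0.16, against -1.03 for the 39. Ccnd2, a D-type cyclin, read 8072, 12185 and 6952 in the precursors and 11635, 12407 and 9418 in the mature cultures (log2 difference 0.33, 95% interval -0.26 to 0.92). Ccnd1 and Ccnd3, the other D-type cyclins, ran from 1132 in M5 to 2217 in M6 and from 5808 in M4 to 8106 in M6. E2f1, the transcription factor, had its highest values in M4 (3799) and M1 (3705) and read 2890 in M6. In the sets just given M6 was the lowest culture for none of these 4 genes. A further set of Ccnd2, 1 of 5 tested, was lowest in M6 (8344, log2 difference -0.23), as was the chip B set of Ccne1, cyclin E1, with 5741, 3506 and 14350 against 6343, 6125 and 1022. Cdk4, the partner of D-type cyclins, read 7125, 3406 and 6179 against 5386, 4137 and 2852, and its 3 tested sets were all lowest in M6. Cdk2, the partner of cyclin E, was the chip A gene whose groups did not overlap, with 1697, 1628 and 1623 (M1, M3 and M5) against 1461, 1475 and 1623 (M2, M4 and M6). M5 and M6 were all but equal there, and the log2 difference was -0.12 (SE 0.231, adjusted p = 0.961, limma).

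Of the genes that copy chromatin with the DNA, Uhrf1, which carries maintenance methylation to new DNA, read 1154, 1195 and 3015 in M1, M3 and M5 against 2472, 2035 and 593 in M2, M4 and M6. The chip A set of Chaf1b, a subunit of the histone chaperone CAF-1, was lowest in M5 (2018) and highest in M6 (3519), with 2279 to 2544 in the other 4 cultures. Its log2 difference was 0.22 (95% interval -0.36 to 0.79), and 0.033 without M6. The chip B set of Chaf1b had the other sign, -0.33, and was lowest in M4 (1536) and highest in M3 (3377).

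Probe sets of a gene did not always give 1 answer. Of 23 genes with at least 2 tested sets, 14 had stage differences of 1 sign and 9 of both, and the median gap between the highest and lowest difference was 0.497. For Cdc45, the helicase activator, the chip A set read 878, 1239 and 2085 against 1183, 790 and 612 (log2 difference -0.66), while the chip B set read 948, 1611 and 725 against 2205, 2295 and 2135 (1.10, unadjusted p = 0.0145, adjusted p = 0.637, limma). The chip B set is the one whose groups did not overlap, and M5 was its lowest culture and the highest on chip A. The 5 tested Mcm3 sets ran from -1.18 to 0.15, and the lowest, with an unadjusted p of 0.0393 (adjusted p = 0.700, limma), read 877, 658 and 1798 against 780, 460 and 123, the last value being under the floor. Without M6 that set gave -0.76. The chip A set of Ccnd3 gave -0.045 (-0.15 without M6) and its 2 tested chip B sets 0.27 and 1.07. Which part of a transcript each set reads was not analysed here. In 8 of the 23 genes every tested set was lowest in M6. Over the 14 tested chip B sets taken alone, the order was not seen in the same way. M6 was lowest in 4 (28.6%, against 20.9% of all tested chip B sets), and M5 was highest in 3 (21.4%, against 18.0%) and lowest in 5 (35.7%, against 19.6%). Among the 70 chip A sets M6 was lowest in 44 and M5 highest in 43.

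M6 was often the lowest culture both for genes with an E2F form in the window and for those without. It was lowest for 10 of 13 tested genes with a match and for 15 of 25 without, and the median of M6 minus the mean of M2 and M4 was -1.16 and -0.66. The deficit was thus larger with a match, and this gap was not tested. Fen1 and Rrm2, with the largest M6 deficits in the brightest sets, had no match.

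Genes of the same processes outside the 49 were read from further lists. Of 50 other replication genes 42 were tested and 0 passed (limma, adjusted p), with a median difference of -0.24 (-0.014 without M6), M6 lowest in 24 and M5 highest in 24. The largest differences there were those of Dscc1, a clamp loader factor for cohesion, at -1.19 (95% interval -2.41 to 0.024), and Nasp, a histone chaperone, at -0.86 (-2.06 to 0.33), which were -0.63 and -0.22 without M6. Of 26 further G1/S regulators 24 were tested and 0 passed, with a median of -0.22 (0.035 without M6). M6 was lowest in 12 of these 24 (50%) and M5 highest in 8, and M6 minus the mean of M2 and M4 had a median of -0.36. Cdkn2b, the INK4 inhibitor of CDK4 and CDK6, read 1546, 2197 and 1111 in M1, M3 and M5 and 528, 623 and 687 in M2, M4 and M6, so that the groups did not overlap, and its log2 difference of -1.35 (SE 0.318) had an adjusted p of 0.133 in limma. E2f2, an activating E2F factor, had -1.27 (95% interval -2.34 to -0.20, adjusted p = 0.686, limma). Of 33 genes of mitosis and G2/M 30 were tested and 0 passed, with a median of -0.36 (0.11 without M6). M6 was lowest for 26 of these 30 and M5 highest for 22, as for Cdk1, the mitotic kinase, with 3223, 2494 and 6656 against 3556, 1977 and 606.

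**Figure D5:**
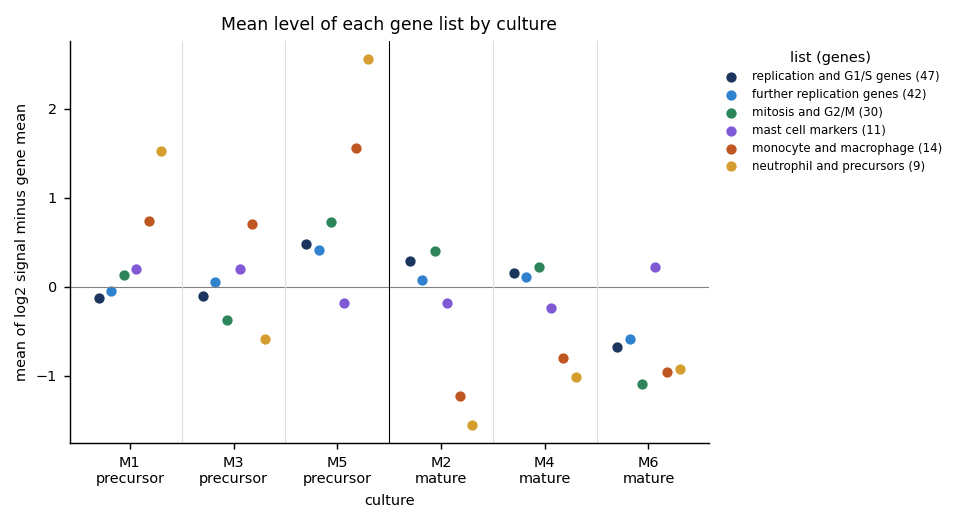
Mean log2 signal of each gene list minus the gene means, by culture, for 6 lists with the number of tested genes. Replication, further replication and mitosis genes are highest in M5 (0.47, 0.41 and 0.72) and lowest in M6 (-0.68, -0.59 and -1.10), and macrophage and neutrophil genes are high in M5 as well (1.55 and 2.56).

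As the plot of list levels shows, the mean centred log2 level of the 47 genes was -0.13, -0.10 and 0.47 in M1, M3 and M5 and 0.28, 0.15 and -0.68 in M2, M4 and M6. Genes of other cell types moved with the high value of M5. Of 14 tested monocyte and macrophage markers 7 fell in the mature cultures and 0 rose. The summed signal of that list was 138519 to 192466 in the precursors, highest in M5, and 22807 to 33158 in the mature cultures, where 1 defining marker, Mpeg1, lay at the floor in all 3. Of 9 tested neutrophil and granulocyte precursor markers 1 fell (Chil3, at the floor in the mature cultures). Their summed signal was 61750 to 173857 in the precursors, highest in M5, against 5287 to 8372. The mean centred log2 level of these 9 set M3 nearer to the mature cultures. It was 1.53, -0.59 and 2.56 in M1, M3 and M5 and -1.56, -1.02 and -0.92 in M2, M4 and M6. M3 was the lowest culture for 3 of the 9. Of 5 tested stromal markers 1 fell, with sums of 16648 to 25926 against 7010 to 11837. The part of these cells in the M5 values was not tested. The neutrophil sum was 84954 in M1 and 173857 in M5, and the level of the replication and G1/S genes was -0.13 and 0.47. For M6 the macrophage sum of 24442 lay between those of M2 and M4, and the neutrophil sum was 8372 against 5287 and 7627. The mast cell sum of M6 was the highest of the 6, at 909544 against 511361 to 642444. The mean centred log2 level of the mast cell list set M6 less apart. It was 0.22 in M6, 0.20 in M1 and 0.19 in M3, and -0.24 to -0.19 in the other cultures. The part of cell make-up in the M6 values was not tested.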

How the data were processed

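Total RNA of 6 cultures, extracted with TRIzol and labelled with biotin, was read on 1 MOE430A and 1 MOE430B array each. The deposited values are MAS5 signal intensities on a linear scale, per the submitters' processing notes; the MAS5 version and settings are not given in the sources used here. The values show a scaling to a mean near 1500 after removal of 2% at each end. Instrument records gave the fluidics station. Chips were handled apart. Values were raised to the 30th percentile (247 on chip A, 359 on chip B) and log2 taken, and sets above the table median in at least 3 of 6 arrays were tested (11576 of 22626, and 11880 of 22511). The stage difference was fitted in limma 3.58.1 under R 4.3.3 (lmFit, eBayes with an intensity trend, two-sided, no covariate), with Benjamini-Hochberg adjustment within a chip and 0.05 as the threshold. The fit was tested on simulated data.

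Gene names are those of the platform annotation. The genes, lists and tests were chosen with earlier results of these data known. Named genes were, per role, those with the largest difference and the brightest set, sets with an adjusted p under 0.05 or with no overlap, and genes whose sets had opposite signs over 1 apart; outside the 49, up to 3 that passed or else the 2 largest differences per list. Further genes, such as Mcm5, Mcm6, Orc1, Pcna, Dut, Tk1, Uhrf1 and Pole, were named after their values were seen. Alternatives were other scalings, floors, filters and variance models, array weights, sex or station as a block, the male cultures alone, and each culture left out.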

Additional observations from a re-analysis of the deposited data

How the results depend on the processing

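No gene of the 49 passed in any of the 17 alternative fits, with each culture left out among them (0 on both chips). At an unadjusted p under 0.05, 1 passed on each chip. The median difference of the chip A genes was -0.14, and it ran from -0.35 to 0.12 with 1 culture left out (positive without M5, 0.062, or M6, 0.12), was 0.055 with array weights and 0.28 without M5 and M6. Its sign thus rested on these 2 cultures. Over all genes, the chip A count of 61 was 1 with no filter, 763 at an unadjusted p and 21 to 59 with a culture left out. The chip B count of 11 was 4 with no floor, 17 with a floor at the 50th percentile, 0 with no filter (763 at an unadjusted p in the filtered sets), 3 with no intensity trend, 7 with array weights, 17 with sex as a block, 2 in the 4 male cultures and 3 to 11 with a culture left out. The causes were not tested.

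Of 254 recomputed differences of the named genes, each read from the brightest set, 235 kept their sign and none passed. Turned signs were found with array weights for Mcm7 (0.17), Fen1 (0.067) and Rpa1 (0.12), with quantile normalization for Rpa1 (0.014), and in the male cultures alone for Mcm7 (0.21), Prim2 (0.18), Fen1 (0.31), Rpa1 (0.10) and Cdk4 (0.041). With a culture left out, the ranges were -0.0084 to 1.35 for Gins2, -0.57 to 0.35 for Mcm7, -0.77 to 0.18 for Prim2, -1.33 to 0.40 for Fen1, -0.11 to 0.17 for Rpa1, -1.27 to 0.087 for Rrm2 and -0.15 to 0.092 for Ccnd3. They were -0.98 to -0.11 for Cdt1, -0.68 to -0.032 for Prim1 and -0.85 to -0.24 for Mcm3. No paired analysis was possible because the precursor and mature cultures share no replicate numbers. With 3 cultures a group, and M6 standing apart in its control sets, differences under about 1 log2 unit could not be resolved for most genes. Larger ones could fail as well, as did Cdkn2b (-1.35, adjusted p = 0.133, limma) and E2f2 (-1.27, adjusted p = 0.686, limma).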

Other observations

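The CCAAT box, searched on both strands of the same windows, was found for 24 of the 40 replication and G1/S genes (60%), for 23 of 29 genes of mitosis and G2/M (79.3%) and for 3992 of 9512 genes with a tested set (42.0%). The E2F forms were found for 1 of those 29 mitosis genes (3.45%).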
